A study of Mus musculus with 11 samples.

Results

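The transcripts described here are 7 published targets of regulated IRE1-dependent decay (RIDD): Bloc1s1, Dgat2, Ppp1r15b, Hgsnat, Scara3, St3gal5 and Ergic3. They were chosen by name, as reported targets of this decay, out of 54232 gene identifiers in the count files. Earlier results of these data were known at that choice. The paper reports Bloc1s1, Dgat2 and Ppp1r15b as reduced in mutant hepatocytes of this study. Counts of members called are thus a description and not a test of the set. All 7 passed the filter on low counts that left 13303 genes to be tested. The values come from RNA-Seq of hepatocytes of adult male C57BL/6 mice, in 11 libraries. The controls were Xbp1fl/fl mice, with floxed Xbp1 and no Cre, and the mutants were Xbp1LKO mice, in which Cre under the albumin promoter deletes Xbp1 in liver cells. Mice of both genotypes were fed either chow or HFS, a high fat sugar diet, for up to 6 weeks, and no age beyond adult is given. On chow there were 3 control and 2 mutant libraries, each from 1 mouse, and on HFS there were 3 control and 3 mutant libraries, each made from 2 pooled mice. The hepatocytes had been purified on Percoll, and a count per gene covers the whole of Xbp1, including what is left of its transcript after the deletion.

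IRE1, encoded by Ern1, is a sensor in the membrane of the endoplasmic reticulum (ER) that is both a kinase and an RNase. Its RNase starts the unconventional splicing of Xbp1 mRNA by cutting each of its stem-loops, and in RIDD it cuts other mRNAs near the ER, which are then degraded. The preferred cut lies within the letters CTGCAG, with T for the U of RNA, in the loop of a short hairpin, and in liver without XBP1 the IRE1 protein is known to be highly active. The comparison of genotypes asks how much of each target mRNA was left in hepatocytes without XBP1, and the comparison of diets asks whether HFS feeding moved the same mRNAs.

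To show what such a site looks like in these transcripts, hairpins with a loop of 7 bases were looked for in the GENCODE M21 transcript with the longest coding sequence of each gene. The loop had to read CNGCAGN and to be closed by a stem of at least 4 base pairs, where G opposite T was allowed. CTGCAG reads the same on both strands, and every site is given on the strand of the transcript. The search found the known pair of loops of Xbp1, shown first, and then 1 hairpin each in Bloc1s1, Dgat2, Ppp1r15b and Scara3. Capitals mark the 7 bases of the loop, and for Hgsnat, which has the letters but no such hairpin, they mark CTGCAG.
Xbp1 loop 1: gtctgctgagtCCGCAGCactcagactat
Xbp1 loop 2: tatgtgcacctCTGCAGCaggtgcaggcc
Bloc1s1: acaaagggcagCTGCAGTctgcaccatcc
Dgat2: ctaggagtggcCTGCAGTgtcatcctcat
Ppp1r15b: ggtgtcccctgCTGCAGAcaggccggagc
Scara3: ccgcgggggccCTGCAGAggcccgcgcag
Hgsnat: catgggtccatcCTGCAGgttaactccacc

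Positions are those of GRCm38. The Xbp1 stretches lie in the coding part of exon 4 at chr11:5524265-5524293 and chr11:5524291-5524319 on the plus strand, with stems of 6 and 7 pairs. The Bloc1s1 hairpin (chr10:128920000-128920028, minus strand) is in the coding part of its exon 4 with 4 stem pairs, and that of Ppp1r15b (chr1:133132763-133132791, plus strand) is in the coding part of exon 1, also with 4. The Dgat2 hairpin has 5 pairs, with its loop in exon 3 at chr7:99165176-99165182 on the minus strand, and the stretch shown spans the junction of exons 2 and 3. The Scara3 hairpin has 5 pairs in the 5′ UTR (chr14:65953511-65953539, minus strand). The Hgsnat letters shown are in the coding part of exon 3 (chr8:25971589-25971618, minus strand).

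The bare letters CTGCAG occurred in 6 of the 7 transcripts, 20 times in all, with 6 sites in Ppp1r15b, 4 each in Bloc1s1 and Dgat2, 3 in Scara3, 2 in Hgsnat, 1 in the 3′ UTR of St3gal5 and 0 in Ergic3. These letters were in 85.2% of the 11847 tested genes with a coding transcript, so holding them sets a transcript apart very little. The hairpin was rarer, in 13.6% of those genes and in 4 of the 7 members. Longer transcripts have more chances to hold it. Among tested genes within 10% of the length of the member, the hairpin was found in 2.82% of 71 genes for Bloc1s1 (550 bases), 9.70% of 1237 for Dgat2 (2262 bases), 19.2% of 874 for Ppp1r15b (5594 bases) and 15.6% of 1424 for Scara3 (3597 bases). Hgsnat, St3gal5 and Ergic3 have no such hairpin in any annotated coding transcript, which says only that these letters in this form are not there.

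**Figure D1:**
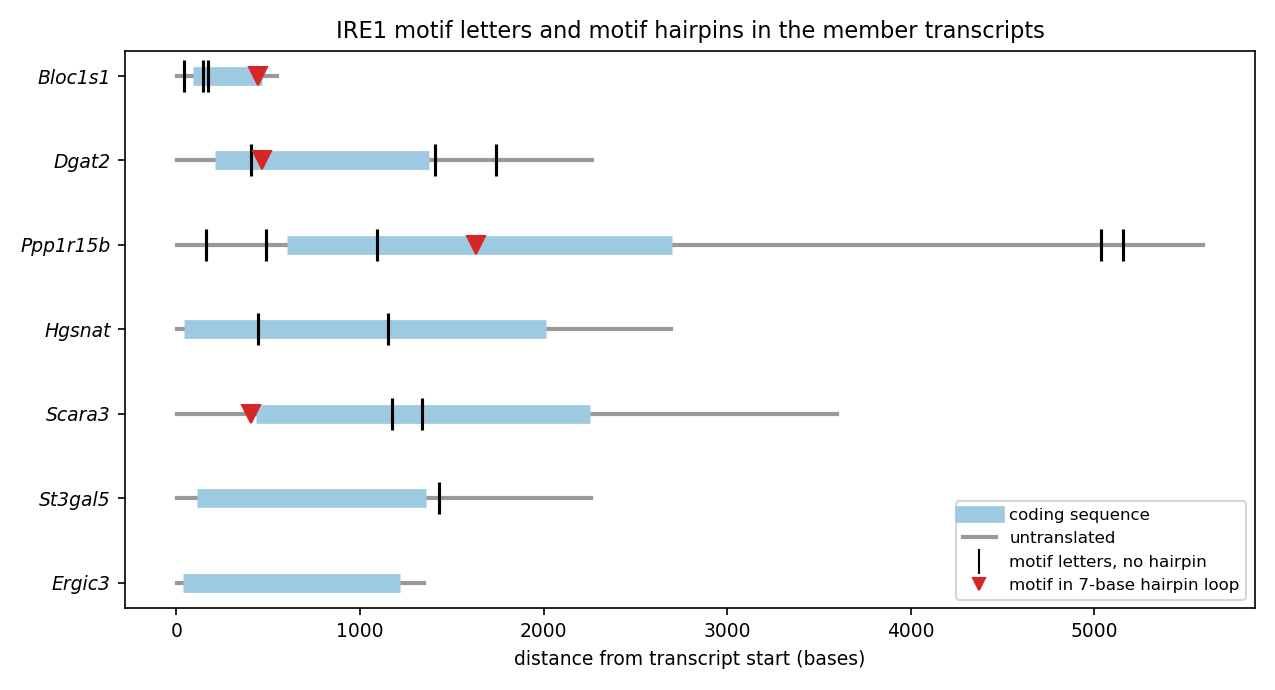
Annotated transcripts of the 7 genes drawn to scale, with the distance from the transcript start in bases on the x axis, the coding sequence as a thick bar and untranslated parts as a line. Ticks mark CTGCAG without a hairpin and triangles mark a motif in a 7-base hairpin loop, which is present once in each of 4 transcripts, while Ergic3 has neither mark.

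Total counts were 19191032 to 23888401 per library. The targeted gene Xbp1 was at 194 to 221 CPM (counts per 1e6 counts, scaled by the TMM factors of edgeR) in controls and 95.7 to 128 CPM in mutants on chow. On HFS its range was 242 to 301 CPM in controls and 97.3 to 135 CPM in mutants, with no overlap on either diet. Hepatocyte markers dominated in every group, and the defining macrophage, endothelial, stellate, cholangiocyte and lymphocyte genes were at a low level. The summed level of 9 hepatocyte markers was nevertheless lower in mutants, at 35647 to 67200 CPM against 131322 to 159354 CPM on chow and at 50657 to 78953 CPM against 111107 to 127709 CPM on HFS. The Alb transcript, which alone took 8.06% to 10.9% of all counts in controls on chow, took 3.72% and 1.67% in mutants. In bulk RNA, fewer cells of a type and less RNA per cell cannot be told apart. The p-values below weigh differences between groups against the spread between these libraries. That spread was estimated jointly from the single-mouse libraries on chow and the pooled libraries on HFS.

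In mutants on chow, 4 of the 7 transcripts were lower and 0 were higher by edgeR's quasi-likelihood test, adjusted by Benjamini-Hochberg over all tested genes at a threshold of 0.05. By the same rule 3.02% of all tested genes were lower and 1.73% higher. The 4 members were Dgat2, Ppp1r15b, Hgsnat and Ergic3. The same 4 were lower, and 0 higher, in mutants on HFS, where 2.16% of all genes were lower and 1.92% higher. In the comparison of genotypes averaged over the diets, Bloc1s1 and St3gal5 passed as well, which made 6 of 7 lower and 0 higher, against 6.64% and 5.25% of all genes. DESeq2 called 4 members lower on chow, where it called 5.22% of all genes lower, and 6 on HFS, where it called 3.69%. In the average it called 6 lower and Scara3 higher, beside 7.74% and 5.72% of all genes. Scara3 was the exception, with a positive log2 fold change in each genotype comparison, none of which passed in edgeR. The median log2 fold change of the 7 was -0.95 on chow and -0.99 on HFS, beside 0.00 and 0.01 over all tested genes. The 9 hepatocyte markers also had negative medians, of -0.66 on chow (9 negative, 0 positive) and -0.95 on HFS (8 negative, 1 positive). All mutants were below all controls for 6 members on chow, where 15.9% of all genes separated in that direction, and for 6 members on HFS, where 12.5% did. Scara3 overlapped on chow and separated upwards on HFS, as did 13.6% of all genes.

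**Figure D2:**
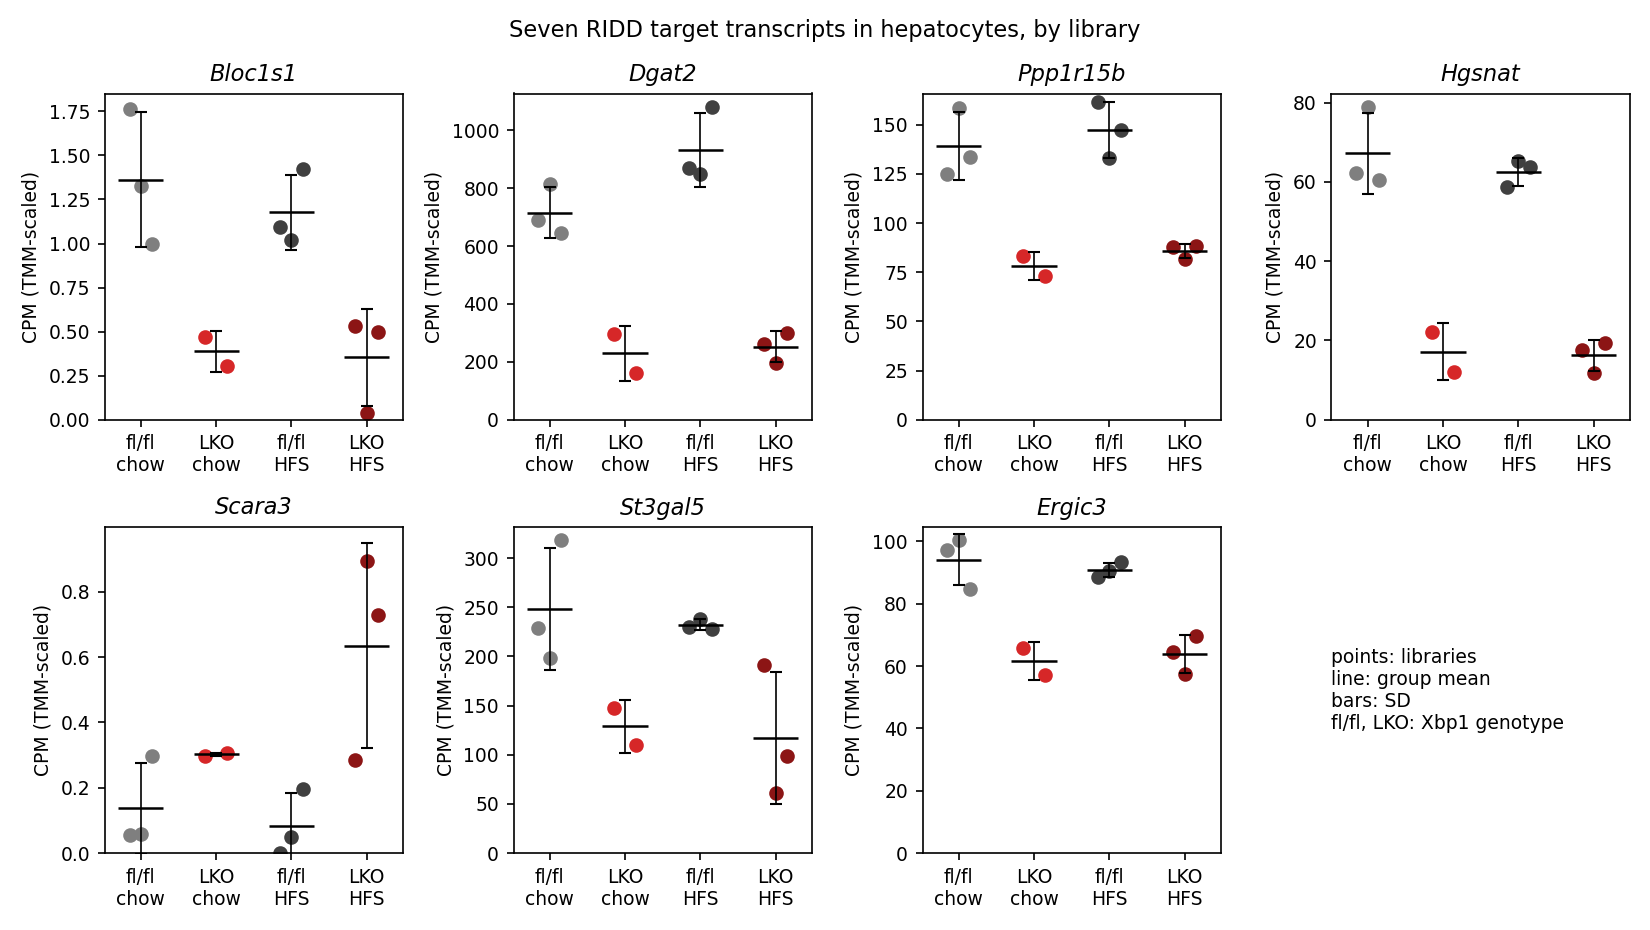
Level of each transcript in CPM scaled by TMM factors (y axis, from 0) in the 4 groups (x axis). Points are single libraries, lines are group means and bars are SD, cut off at 0, with 2 libraries for Xbp1LKO on chow and 3 for each other group. The Xbp1LKO points lie below the Xbp1fl/fl points of the same diet in 6 panels, and Scara3 shows the opposite order on HFS.

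Hgsnat and Bloc1s1 serve the lysosome. Hgsnat (ENSMUSG00000037260, chr8:25944453-25976753, minus strand) encodes the lysosomal acetyltransferase that heparan sulfate breakdown needs. Its level was 62.3, 78.8 and 60.4 CPM in controls on chow and 22.2 and 12.1 CPM in mutants. After HFS feeding the controls had 58.6, 65.3 and 63.6 CPM and the mutants 17.6, 11.8 and 19.4 CPM. The highest mutant library was thus far below the lowest control. On chow Hgsnat fell by 74.5% (log2 fold change -1.97, standard error (SE) 0.26, adjusted p = 0.00398), and on HFS it fell by 74.0% (-1.94, SE 0.23, adjusted p = 0.00226). It was the deepest of the 4 members called on each diet, and the only member whose call held in every fit that left out 1 library, on each diet.

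Bloc1s1 (ENSMUSG00000090247, chr10:128917882-128924035, minus strand) encodes a subunit shared by the BLOC-1 complex, which helps to form lysosome-related organelles, and the BORC complex, which positions lysosomes; it is the transcript most often used to follow RIDD. Few reads were assigned to it. The counts on chow were 32, 23 and 20 in controls and 11 and 7 in mutants, or 1.77, 1.33 and 1.00 CPM against 0.47 and 0.31 CPM. On HFS they were 23, 20 and 29 against 13, 1 and 13, or 1.10, 1.02 and 1.42 CPM against 0.53, 0.04 and 0.50 CPM. The groups did not overlap on either diet. Neither diet passed the threshold alone, at a log2 fold change of -1.79 on chow (SE 0.66, adjusted p = 0.157) and -1.73 on HFS (SE 0.58, adjusted p = 0.132). The paper, whose methods name kallisto and DESeq2, reports a marked reduction of Bloc1s1 that passed its threshold on each diet. Its RNA-Seq is described with more chow-fed mutants than are used here. DESeq2 on the counts used here gave Bloc1s1 an adjusted p of 0.0664 on chow and 0.0427 on HFS. Why the calls here differ from those of the paper was not tested. Averaged over the diets Bloc1s1 fell by 1.76 (SE 0.44, adjusted p = 0.0234). That call was lost without the second mutant library on chow (adjusted p = 0.113) or the third control library on HFS (adjusted p = 0.0544). From pooled counts alone, the ratio of mutant to control was 0.288 (95% exact interval 0.162 to 0.486) on chow and 0.295 (0.182 to 0.465) on HFS, intervals that cover counting error only.

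Bloc1s1 overlaps another gene, which bears on how many of its reads could be assigned. Of its 1288 annotated exon bases, 720 (55.9%) are also exon bases of Rdh5, its neighbour on the same strand. In the 550-base coding transcript, exons 2 and 3 lie wholly within exons of Rdh5, as do 160 of the 194 bases of exon 4, and exon 1 (150 bases) is free. Across the files, all 129 protein-coding genes whose every exon base is shared with a gene on the same strand had 0 counts in all 11 libraries, as had 34 of the 35 whose every base is shared with a gene on the opposite strand, against 33.3% of the 15454 genes that share no base. Genes made only of shared exons thus went almost without counts, and if the same holds for shared parts of other genes, the value of Bloc1s1 rests on 33.5% of its coding transcript. Whether this sets its low count was not tested. Rdh5, a retinol dehydrogenase gene, was at -0.14 on chow (log2 fold change, SE 0.21, adjusted p = 0.772) and -0.36 on HFS (SE 0.19, adjusted p = 0.373). None of the other members shares an exon base with a gene on its own strand, and Ppp1r15b shares 11.4% of its exon bases with Gm26616 on the opposite strand, which was at -0.34 (adjusted p = 0.737) and -0.63 (adjusted p = 0.43). Pomk, 3850 bases from Hgsnat, was at 0.13 (adjusted p = 0.833) and -0.09 (adjusted p = 0.905), and 6430550D23Rik, 67 bases from Ergic3, at 0.24 (adjusted p = 0.78) and -0.48 (adjusted p = 0.519).

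Dgat2 and St3gal5 make lipids. Dgat2 (ENSMUSG00000030747, chr7:99153658-99182719, minus strand) encodes an acyltransferase of the ER that catalyses the last step of triglyceride synthesis. It was the most abundant member, with 690, 814 and 645 CPM in controls on chow and 296 and 162 CPM in mutants. On HFS the controls had 871, 849 and 1080 CPM and the mutants 262, 196 and 300.2 CPM. Every mutant library, on either diet, was below every control. Dgat2 fell by 68.0% on chow (log2 fold change -1.64, SE 0.27, adjusted p = 0.00725), and it fell by 72.9% on HFS (-1.89, SE 0.23, adjusted p = 0.00254). Without the second mutant library on chow the chow value was -1.28 with an adjusted p = 0.0659.

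St3gal5 (ENSMUSG00000056091, chr6:72097592-72154571, plus strand) encodes the sialyltransferase that makes ganglioside GM3 in the Golgi. Controls had 229, 199 and 318 CPM on chow and 230, 238 and 228 CPM on HFS. Mutants had 148 and 110 CPM on chow and 192, 60.8 and 98.9 CPM on HFS. All mutants were lower than all controls, but those on HFS spread most widely (SD 67.3 CPM). The values of -0.95 on chow (log2 fold change, SE 0.38, adjusted p = 0.192) and -0.99 on HFS (SE 0.33, adjusted p = 0.135) did not pass. The average over the diets did (-0.97, SE 0.25, adjusted p = 0.0287). That call was lost in 6 of the 11 fits that left out 1 library, namely the third control on chow (adjusted p = 0.0545), the second mutant on chow (0.141), each of the 3 controls on HFS (0.0525, 0.0506 and 0.0545) and the third mutant on HFS (0.0685). Without the first mutant library on HFS, the highest of its group, the HFS value was -1.54 with an adjusted p = 0.00923. The transcript 4933431G14Rik, annotated antisense within the span of St3gal5 without sharing an exon base, also fell in the average over the diets (-1.52, SE 0.43, adjusted p = 0.0423) at a mean of 1.21 CPM or less in each group. The sources used here do not say whether strand was used in counting. Of 35 protein-coding genes whose every exon base is shared with the opposite strand only, 34 had 0 counts, as counting without strand would give. The fall of 4933431G14Rik is therefore not shown to be separate from that of St3gal5, which was not tested.

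Ppp1r15b (ENSMUSG00000046062, chr1:133131143-133139783, plus strand) encodes CReP, which brings protein phosphatase 1 to the phosphorylated translation factor eIF2α. It had 125, 158 and 134 CPM in controls on chow and 83.2 and 73.2 CPM in mutants. The libraries on HFS had 161, 133 and 147 CPM in controls and 87.8, 81.8 and 88.2 CPM in mutants. The mutants lay close together and below all controls. Ppp1r15b fell by 43.7% on chow (log2 fold change -0.83, SE 0.14, adjusted p = 0.00742), and it fell by 41.7% on HFS (-0.78, SE 0.12, adjusted p = 0.00537). Without the second mutant library on chow the chow call was lost (-0.74, adjusted p = 0.0947).

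Ergic3 (ENSMUSG00000005881, chr2:156008045-156018279, plus strand) encodes a membrane protein that cycles between the ER and the Golgi. Its levels were 97.1, 100.3 and 84.8 CPM against 66.0 and 57.2 CPM on chow, and 88.6, 90.4 and 93.3 CPM against 64.4, 57.5 and 69.6 CPM on HFS, with controls given first. The groups did not overlap on either diet. Ergic3 fell by 34.5% on chow (log2 fold change -0.61, SE 0.12, adjusted p = 0.0182), and it fell by 29.7% on HFS (-0.51, SE 0.11, adjusted p = 0.0263). Scaled by library totals only, the median of all genes was higher by 0.33 on chow and 0.26 on HFS (log2) than with TMM factors, and Ergic3 was at -0.29 (adjusted p = 0.0998) and -0.25 (adjusted p = 0.133), which ended both calls. With that scaling, 2.37% of all genes were lower and 20.2% higher on chow, and 1.47% and 9.68% on HFS. The chow call was also lost without the second control on chow (adjusted p = 0.0606) or the second mutant on chow (adjusted p = 0.196). The HFS call was lost without any 1 of the 3 controls on HFS (adjusted p = 0.0759, 0.0734 and 0.0951), the first mutant on HFS (0.0549) or the second (0.129).

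Scara3 (ENSMUSG00000034463, chr14:65919394-65953935, minus strand) encodes a scavenger receptor-like membrane protein. It was barely detected, with counts on chow of 1, 1 and 6 in controls and 7 and 7 in mutants. On HFS the counts were 0 (which allows up to 0.176 CPM, exact 95% Poisson limit), 1 and 4 in controls and 7, 24 and 19 in mutants, or at most 0.20 CPM against 0.29, 0.89 and 0.73 CPM. The direction was opposite to that of the other members, and the groups overlapped on chow but not on HFS. Only the mutant libraries on HFS with 24 and 19 counts reached the minimum count of 10 used in the filter. Scara3 was thus tested through the group in which it was high, and its positive values are given as a description only. Neither 1.06 on chow (log2 fold change, SE 0.91, adjusted p = 0.581) nor 2.88 on HFS (SE 0.83, adjusted p = 0.0794) passed. The pooled counts of 50 against 5 on HFS gave a ratio of 7.88 (95% exact interval 3.16 to 25.3, counting error only), and those of 14 against 8 on chow a ratio of 2.10 (0.821 to 5.77). In the average over the diets, Scara3 was at 1.97 (SE 0.62, adjusted p = 0.0641), with an adjusted p of 0.0443 by DESeq2. It passed without the third control on chow (adjusted p = 0.0296), the third control on HFS (0.0376) or the first mutant on HFS (0.0444).

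Among mutants, the second library on chow and the second on HFS had the lowest level of their group for 6 of the 7 members, all but Scara3, for which they had the highest. The same libraries had the lowest Alb share of their groups, 1.67% on chow and 3.33% on HFS, and the largest TMM factors of their groups. The part of this difference between libraries in the results for the members was not tested beyond the fits without each library.

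Levels of different genes were compared per length, as CPM divided by the kilobases of exon that a gene shares with no other gene (RPKM). In controls on chow the order was Dgat2 (232 ± 28.4, SD, n = 3), St3gal5 (94.96 ± 23.7), Ergic3 (44.4 ± 3.86), Ppp1r15b (28.1 ± 3.49), Hgsnat (20.3 ± 3.07), Bloc1s1 (2.40 ± 0.679) and Scara3 (0.0382 ± 0.0389). The library ranges of neighbours in that order did not overlap. For Bloc1s1 this divides by 568 unshared bases of all its annotated exons, and over the 184 unshared bases of its coding transcript alone the value was 7.41 ± 2.10 RPKM, which leaves it at the same place in the order. In mutants on chow, the ranges of Dgat2 (52.6 to 96.0 RPKM) and St3gal5 (41.9 to 56.5 RPKM) overlapped, with means of 74.3 and 49.2 RPKM. In mutants on HFS St3gal5 ranged from 23.2 to 73.2 RPKM and overlapped both Dgat2 (63.6 to 97.4 RPKM) and Ergic3 (27.1 to 32.8 RPKM). Hgsnat stood at 5.18 RPKM on chow and 4.92 RPKM on HFS in mutants, still above Bloc1s1 at 0.682 and 0.625 RPKM (2.11 and 1.93 RPKM over its coding transcript alone).

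HFS feeding did not move any member past the threshold in either genotype. All chow libraries came from single mice and all HFS libraries from pooled mice. Diet and pooling therefore cannot be told apart, here or in the interaction below. In controls 0 of 7 members were called by edgeR's quasi-likelihood test, adjusted by Benjamini-Hochberg, beside 0.428% of all tested genes. The adjusted p-values were 0.695 to 0.971, and 0 members had an unadjusted p under 0.05 or were called by DESeq2, which called 1.17% of all genes. Dgat2 was the only member whose diet groups did not overlap, being higher in each HFS-fed control library (log2 fold change 0.38, 95% interval -0.06 to 0.82, adjusted p = 0.695), as were 6.33% of all genes. For Ppp1r15b the interval was -0.15 to 0.32 and for Ergic3 it was -0.27 to 0.16, so diet effects of the size of the genotype effects lie outside them. The intervals of St3gal5 (-0.74 to 0.55), Bloc1s1 (-1.24 to 0.83) and Scara3 (-2.77 to 1.26) were wider.

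In mutants 0 of 7 members were called between diets by edgeR's quasi-likelihood test, beside 0.0601% of all genes. Their adjusted p-values were 0.588 to 0.951, with 0 members at an unadjusted p under 0.05 and 0 called by DESeq2, which called 1.5% of all genes. The diet comparisons share their libraries with the genotype comparisons. The interaction of genotype and diet, which asks whether the fall differed between chow and HFS feeding, called 0 members and 0.0% of all genes by edgeR's quasi-likelihood test. At an unadjusted p under 0.05 there were 816 genes but 0 members, and DESeq2 called 0.223% of all genes and 0 members. For Hgsnat the difference between the falls was 0.03 (95% interval -0.62 to 0.68, log2), for Ppp1r15b 0.05 (-0.30 to 0.40) and for Ergic3 0.10 (-0.22 to 0.42). For Dgat2 it was -0.24 (-0.90 to 0.42), and for Scara3 1.82 (-0.70 to 4.34), an interval too wide to tell.

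**Figure D3:**
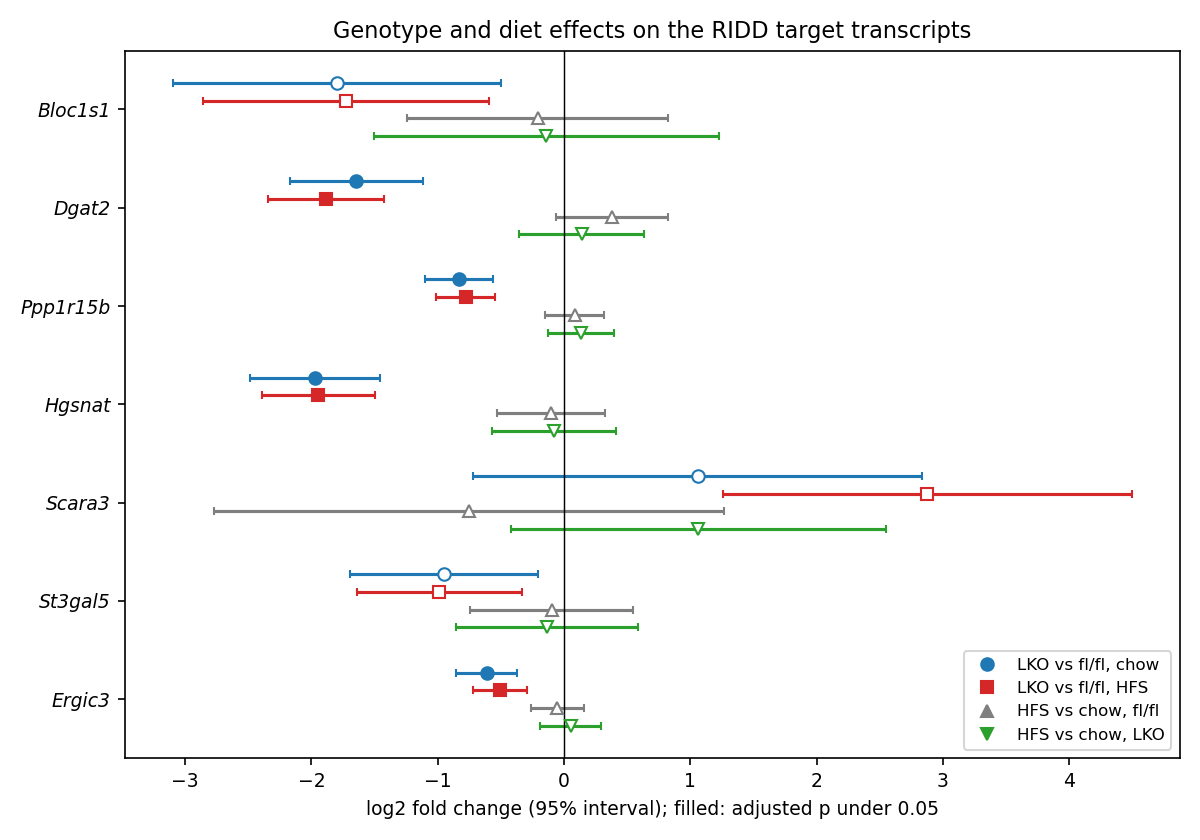
Log2 fold change of each transcript (x axis) with its 95% interval (bars) for the genotype comparison on chow and on HFS and for the diet comparison in each genotype, where a filled symbol marks an edgeR adjusted p under 0.05. The genotype intervals, which are not adjusted for the number of genes, lie wholly below 0 on both diets for every transcript but Scara3, whose interval spans 0 on chow and lies above 0 on HFS, while every diet interval spans 0.

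Each member was next set beside genes of its own pathway, in 7 lists with 61 tested genes. By edgeR's quasi-likelihood test, adjusted by Benjamini-Hochberg, 4 of the 61 were lower and 0 higher on chow, and 4 were lower and 0 higher on HFS. In the average over the diets 13 were lower and 2 higher, namely Gpat3 and St3gal6 (1.45, adjusted p = 0.0251). Over all tested genes, 3.02% were lower on chow and 2.16% on HFS, and 6.64% were lower and 5.25% higher in the average. At these shares, 0 called on a diet in a short list says little about its genes. For Bloc1s1, 0 of 12 other subunits of BLOC-1 and BORC were called on either diet (1 on chow and 2 on HFS at an unadjusted p under 0.05, and 0 by DESeq2), and their median log2 fold change was -0.08 on chow and -0.12 on HFS. The BLOC-1 subunit Dtnbp1 had the smallest p, with -0.36 (adjusted p = 0.111) on chow, -0.29 (adjusted p = 0.154) on HFS and -0.33 (adjusted p = 0.0195) in the average. For Hgsnat, 0 of 7 other enzymes of lysosomal heparan sulfate breakdown were called on either diet (2 and 2 at an unadjusted p under 0.05, 0 and 1 by DESeq2), with medians of -0.35 and -0.39. Naglu, which removes N-acetylglucosamine from heparan sulfate, was at -0.58 (adjusted p = 0.193) and -0.68 (adjusted p = 0.0953), and was called in the average (-0.63, adjusted p = 0.0221).

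For Dgat2, 0 of 11 other enzymes of glycerolipid synthesis were called on either diet (1 and 3 at an unadjusted p under 0.05, 1 and 1 by DESeq2), and the medians were 0.04 and -0.19. Dgat1, whose enzyme catalyses the same last step, was at 0.04 (adjusted p = 0.898) on chow and -0.05 (adjusted p = 0.887) on HFS, and Gpam, which encodes the mitochondrial enzyme of the first step, was at -0.41 (adjusted p = 0.107) and 0.09 (adjusted p = 0.785). Gpat3 was the 1 gene of this list called in the average, and it was higher (0.91, adjusted p = 0.0433). For Ppp1r15b, 0 of 9 genes of eIF2α phosphorylation were called on either diet (3 and 1 at an unadjusted p under 0.05, 0 and 1 by DESeq2), with medians of -0.03 and -0.02. The kinase gene Eif2ak1 was at -0.26 (adjusted p = 0.232) and -0.36 (adjusted p = 0.0644), and was called in the average (-0.31, adjusted p = 0.0189). Dgat1, Gpat3 and St3gal6 were picked after their values were seen.

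For St3gal5, 1 of 9 tested genes of ganglioside synthesis and sialylation was lower on chow and 3 on HFS. The sialyltransferase gene St3gal3 fell on each diet (-1.19, adjusted p = 0.00542, and -1.48, adjusted p = 0.00163). B4galt5, which encodes a lactosylceramide synthase, fell on HFS (-0.997, adjusted p = 0.0245), as did the GM2/GD2 synthase gene B4galnt1 (-0.84, adjusted p = 0.0147), while on chow their adjusted p-values were 0.206 and 0.0924. For Ergic3, 3 of 9 other ER to Golgi cargo receptors and relatives were lower on chow, 1 on HFS and 6 in the average, and the medians were -0.47 and -0.36. Lman1 of this list is also in the list of XBP1 target genes. On chow these were Surf4 (-0.57, adjusted p = 0.0449), Tmed2 (-0.46, adjusted p = 0.034) and Tmed10 (-0.47, adjusted p = 0.0481), and on HFS Lman2 (-0.58, adjusted p = 0.025). Ergic3 was at -0.61 and -0.51 on the same scale. For Scara3, 0 of 4 related scavenger receptors were called (1 on chow and 0 on HFS at an unadjusted p under 0.05, 0 by DESeq2), and Msr1, a macrophage receptor, was at -1.53 (adjusted p = 0.246) on chow and -0.12 (adjusted p = 0.944) on HFS.

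**Figure D4:**
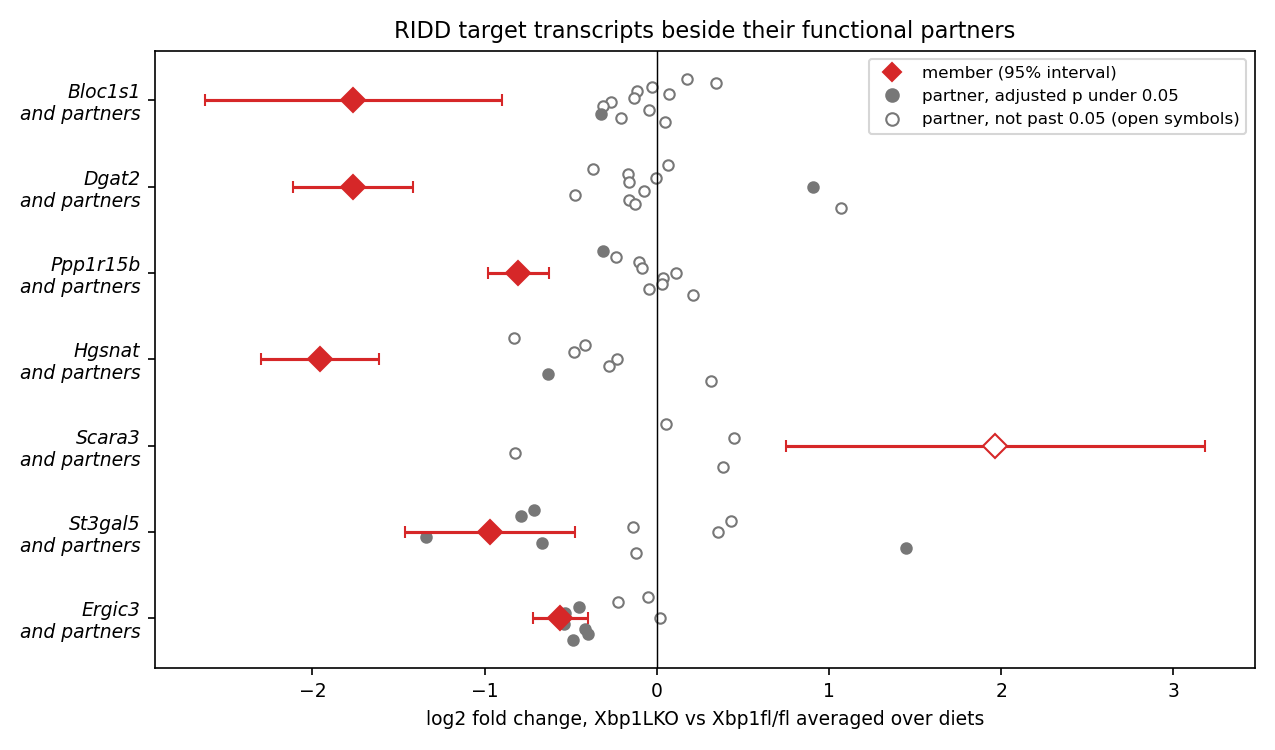
Log2 fold change of Xbp1LKO against Xbp1fl/fl averaged over diets (x axis) for each of the 7 transcripts (diamonds with 95% interval) and the genes of its pathway list (circles), filled where the adjusted p was under 0.05. The partner medians are -0.078, -0.125 and -0.045 for Bloc1s1, Dgat2 and Ppp1r15b, whose diamonds lie at -1.76, -1.76 and -0.80. The Dgat2 partners lie on both sides of 0, with 3 of 11 above it. The Ergic3 partners, with a median of -0.42, all lie to the right of its diamond at -0.56.

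Ern1 itself was at 84.3 ± 21.03 CPM (SD, n = 3) in controls on chow and 128 ± 39.3 CPM (n = 2) in mutants, without overlap (log2 fold change 0.60, SE 0.21, adjusted p = 0.143). On HFS it was at 99.2 ± 6.59 CPM (n = 3) against 105 ± 2.90 CPM (n = 3), with overlap (0.09, SE 0.19, adjusted p = 0.882). The mRNA level does not measure the activity of the IRE1 protein. Of the 9 tested genes for IRE1 and its regulators, only the deleted gene Xbp1 was called on each diet, at -0.87 (adjusted p = 0.0183) and -1.26 (adjusted p = 0.00254). In the average over the diets 2 of the 9 were lower, Xbp1 among them, and DESeq2 called 2 on each diet.

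Another 16 transcripts reported elsewhere as RIDD targets were counted in the same way. On chow 6 were lower and 1 higher, and on HFS 4 were lower and 0 higher by edgeR's quasi-likelihood test, adjusted by Benjamini-Hochberg. Over all tested genes, 3.02% were lower and 1.73% higher on chow, and 2.16% and 1.92% on HFS. The median log2 fold changes of the 16 were -1.14 and -0.40. Among those called on each diet were the carboxylesterase genes Ces1g (-3.49, adjusted p = 0.00532, and -2.61, adjusted p = 0.00781), Ces1e (-3.37, adjusted p = 0.00959, and -2.95, adjusted p = 0.00785) and Ces1f (-2.77, adjusted p = 0.00633, and -1.89, adjusted p = 0.0156). Their neighbour Ces1d, picked after its values were seen, fell on chow (-3.28, adjusted p = 0.0175) and was at -2.10 on HFS (adjusted p = 0.0511). These genes are related neighbours, and whether similar sequence affected the reads assigned to each was not tested. Tapbp, which encodes the peptide-loading protein tapasin, fell by 0.91 (adjusted p = 0.0425) and 1.04 (adjusted p = 0.0145) on the log2 scale. The 1 gene called higher on chow was Tnfrsf10b, a death receptor gene, at 2.17 (adjusted p = 0.0446) and 1.92 (adjusted p = 0.0511), picked after its values were seen. Its counts were low, with 13 over the 3 controls and 50 over the 2 mutants on chow, and 17 against 83 on HFS. No control library reached the minimum count of 10 used in the filter. Tnfrsf10b was thus tested through the mutants, in which it was high, and its values are given as a description only. By qPCR the paper found this gene, there named Dr5, not significantly different on chow and higher in mutants on HFS. Of the 16, 2 had a positive log2 fold change on chow and 5 on HFS, so Scara3 was not the only reported target with a positive value.

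Of 21 target genes of the XBP1 transcription factor, which lose their activator in these mice whether or not IRE1 cuts their mRNAs, 9 were lower on chow and 5 on HFS, with medians of -0.74 and -0.70. Over all tested genes, 3.02% were lower on chow and 2.16% on HFS. The 5 on HFS, listed after their values were seen, were Edem1, Sec61a1, Sec61b, Sec23b and Wfs1. Sec61b, a subunit of the ER translocon, fell by 1.46 (adjusted p = 0.00725) and 1.16 (adjusted p = 0.00995) on the log2 scale. Ssr1, Ssr3 and Serp1, which act at the same translocon, fell on chow by 0.89, 1.11 and 1.10 (adjusted p = 0.00449, 0.0053 and 0.00542), and on HFS were at -0.41, -0.47 and -0.54 (adjusted p = 0.0624, 0.101 and 0.0617). The 4 members called on each diet fell by 0.51 to 1.97 on this scale, a range that contains most of these values. In the present design, loss of a transcriptional activator and decay of an mRNA cannot be told apart from a level.

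The hairpin did not sort the members by their fall. In the average over the diets, members with a hairpin were at -1.76 (Bloc1s1), -1.76 (Dgat2), -0.80 (Ppp1r15b) and 1.97 (Scara3), and those without at -1.96 (Hgsnat), -0.97 (St3gal5) and -0.56 (Ergic3). Over all tested genes with a coding transcript, 3.67% of the 1608 with a hairpin and 3.12% of the 10239 without were lower on chow, with median log2 fold changes of 0.015 and -0.0013. On the HFS diet the shares were 3.67% and 2.07%, and the medians -0.012 and 0.0095. The transcripts with a hairpin were longer, with a median of 4010 bases against 2806.

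As a description over the 11 libraries, which share genotype, diet and library effects, the genes whose log2 CPM profile was nearest to each member by Pearson r among about 11129 genes were Pla1a, Proc and Ndufa9 for Hgsnat (r of 0.99 each) and Tmprss6, Tex264 and Proc for Dgat2 (0.99 each). They were Tmprss6, Lamp1 and Gjb1 for Ergic3 (0.99, 0.99 and 0.98), Smad4, Igf2r and Atrnl1 for Ppp1r15b (0.98 each) and Apoa1, Gm16573 and F11 for St3gal5 (0.95, 0.94 and 0.94). For the members with few counts they were Fads1, Nudt9 and Abca7 for Bloc1s1 (0.96, 0.95 and 0.94) and Gpd1, Pknox2 and Clstn3 for Scara3 (0.96, 0.95 and 0.94).

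Markers of other cell types were set beside these results. None of 11 macrophage, 10 endothelial and 8 tested stellate cell markers was called on either diet by edgeR's quasi-likelihood test, adjusted by Benjamini-Hochberg. On chow, however, 9 endothelial and 4 stellate cell markers had an unadjusted p under 0.05, and DESeq2 called 7 and 2 of them, against 0 macrophage markers by either count. On HFS 0 endothelial, 1 stellate cell and 1 macrophage marker had an unadjusted p under 0.05, and DESeq2 called 0. In the average over the diets, 4 endothelial markers were lower, which were Lyve1, Flt4, Egfl7 and Fcgr2b, named after their values were seen. Over all tested genes, 6.64% were lower in the average. The summed macrophage markers were at 19.7 to 83.7 CPM in controls and 21.6 to 33.0 CPM in mutants on chow, and 38.8 to 53.3 CPM against 54.5 to 94.4 CPM on HFS. Summed stellate cell markers were at 11.7 to 34.5 CPM against 7.38 to 7.996 CPM on chow, and 20.4 to 34.6 CPM against 24.3 to 51.4 CPM on HFS, and Acta2 was at 0 in every control library. Summed endothelial markers were at 45.7 to 108 CPM against 27.1 to 35.8 CPM on chow and 88.1 to 149.8 CPM against 71.9 to 112 CPM on HFS. The markers with the smallest p were Cd68 for macrophages (0.98 on HFS, adjusted p = 0.22), Flt4 for endothelium (-1.84 on chow, adjusted p = 0.0647) and Lrat for stellate cells (-1.82 on chow, adjusted p = 0.0735). Of 2 tested cholangiocyte markers Sox9 fell on chow (-1.54, adjusted p = 0.0167) and was at -0.78 on HFS (adjusted p = 0.143), with the list at 3.38 to 16.3 CPM over all libraries. The 1 tested lymphocyte marker, Ptprc, was at 0.55 (adjusted p = 0.715) and 0.84 (adjusted p = 0.473), with the list at 0.349 to 2.99 CPM. The part of these other cell types in the values of the members was not tested. Among hepatocyte markers Alb (-2.14, adjusted p = 0.0107) and Arg1 (-1.40, adjusted p = 0.0403) fell on chow and Apoa1 (-1.45, adjusted p = 0.0161) and Arg1 (-1.26, adjusted p = 0.0383) on HFS, so that other abundant hepatocyte transcripts fell beside the members.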

How the data were processed

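RNA-Seq of 11 hepatocyte libraries was analysed from the deposited whole-number counts per Ensembl gene, 1 file a library, which the authors had not normalised. The submitters' processing notes name cutadapt 1.13, STAR, HTSeq 0.6.1p1, DESeq2 and mm10, whereas the published methods name kallisto with tximport; the labels name a total RNA kit and the methods a stranded mRNA kit, and the strand setting of the counting is not given in the sources used here. Samples were grouped by genotype and diet from the labels. GENCODE M21 held 54165 of the 54232 identifiers and gave names, exons and transcripts, and the hepatocyte marker Tf was not matched. Total counts of 19191032 to 23888401 per library set the precision, which is lowest for Bloc1s1 and Scara3.

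Genes were filtered with filterByExpr (minimum count 10), scaled with TMM and fitted with edgeR 4.0.16 (R 4.3.3) in 1 quasi-likelihood model with 4 groups and all 11 libraries. P-values were adjusted by the Benjamini-Hochberg method over 13303 genes, and 0.05 was the threshold. The standard error (SE) is the size of the log2 fold change divided by the square root of F, and 95% intervals are normal. Scripts were tested on simulated data. Alternatives were DESeq2 1.42.0, its size factors in edgeR, library totals, no filter, at least 1 CPM in every library, only the groups compared, replicate blocks and leaving out each library.

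The members and gene lists were chosen with earlier results of these data known. Genes named were the members, Xbp1, Ern1, tested genes within 5 kb of a member, and from each list up to 4 genes with the smallest p among those called, or else the 1 with the smallest p, besides the 3 genes with the most similar profile over libraries. Libraries that share a number did not vary together: over 15 pairs the correlation of deviations was -0.20 to 0.23. Differences between libraries of 1 group exceeded sampling noise, so each was counted as a replicate.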

Additional observations from a re-analysis of the deposited data

How the results depend on the processing

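Over 153 refits of the members' genotype effects under other settings and 150 without 1 library, 0 reversed direction, while 6 and 17 of them lost a call and 13 and 4 gained one. The number of members called on chow was 4, and 2 with only the groups compared; leaving out 1 library gave 1 to 4, with Hgsnat alone left without the second mutant library on chow, where the single mutant library left is assumed to vary like the other groups. On HFS the number was 4, and 7 without a filter on low counts. The replicate block by the numbers of the titles gave 4 members on chow, 3 on HFS and 7 in the average, and the block by those of the files, chosen after seeing the data, the same; the numbers do not pair the libraries.

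Small diet effects changed sign, and the cause was not tested. With library totals the interaction was -0.018 for Ppp1r15b and -0.030 for Hgsnat. With a replicate block it was -0.061 for Bloc1s1 (titles) and 0.025 for St3gal5 (files), and the diet effect in mutants was 0.00065 for Bloc1s1 (files). Leaving out 1 library, the interaction ranged from -0.33 to 0.61 for Bloc1s1, -0.61 to 0.25 for Dgat2, -0.051 to 0.14 for Ppp1r15b, -0.35 to 0.53 for Hgsnat and -0.59 to 0.27 for St3gal5. The diet effect in controls ranged from -0.39 to 0.024 for Bloc1s1, -0.17 to 0.027 for Hgsnat, -2.28 to 0.50 for Scara3 and -0.24 to 0.12 for St3gal5. In mutants it ranged from -0.53 to 0.40 for Bloc1s1, -0.22 to 0.64 for Dgat2, -0.44 to 0.43 for Hgsnat, -0.68 to 0.17 for St3gal5 and -0.039 to 0.15 for Ergic3. Counts of Bloc1s1 and Scara3 limit what can be seen for them, and Scara3 did not pass the filter in some of these fits.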
